A study of Mus musculus with 24 samples.

Results

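Immediate early genes are the 10 genes Fos, Fosb, Junb, Egr1, Egr2, Egr3, Egr4, Arc, Nr4a1 and Npas4, taken by symbol from a table of 54532 genes counted in mouse striatum. All 10 were present and all passed the filter on low counts that left 19667 genes for testing. The study sequenced total RNA from the striatum of one hemisphere of 24 C57BL/6 mice, 1 library per animal, to ask how loss of Tyrobp alters the striatal transcriptome of a Huntington's disease model. Tyrobp encodes a signalling adaptor of microglial receptors, and Q175 is a knock-in allele of Htt, the huntingtin gene, with an expanded CAG repeat.

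The 4 groups were wild type (WT), mice with the Tyrobp gene deleted (Tyrobp-KO), mice heterozygous for Q175 with Tyrobp intact (Q175), and mice heterozygous for Q175 that also lacked Tyrobp (Q175 Tyrobp-KO). Each group had 6 animals, 3 males (replicates 1 to 3) and 3 females (replicates 4 to 6). Both alleles are constitutive, so every cell type carried them, and age was not stated. Animal codes in the labels began with T in both Tyrobp-deleted groups, with Q in all 6 Q175 animals and WT replicate 3, and with WT in the other 5 WT animals. Any difference that goes with these codes cannot be told apart from Tyrobp genotype, and in Q175 against WT hardly from Q175. The 2 groups of Q175 Tyrobp-KO against Tyrobp-KO share a code. Library totals ran from 25482686 to 34626720 counts, and a member had between 68 counts (Egr2) and 16213 counts (Egr1) in a library. Tyrobp stood at 7.88 ± 1.15 CPM (counts scaled to a common library size; SD, n = 6) in WT and 8.68 ± 2.10 in Q175, against 0.341 ± 0.0926 in Tyrobp-KO and 0.260 ± 0.0423 in Q175 Tyrobp-KO. Each of the 12 libraries labelled as deleted held at most 0.448 CPM of it and each of the other 12 at least 5.69 CPM. The 15 markers of striatal projection neurons, the main cell type of the striatum, summed to between 5355 and 14084 CPM in a library.

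Immediate early genes are transcribed within minutes of synaptic activity or growth factor signals, without the need for new protein synthesis, because the factors that switch them on (CREB, SRF with its partners, and MEF2) already sit in the nucleus and are activated by phosphorylation. In the striatum, glutamate from the cortex and dopamine acting on projection neurons drive them, and their RNAs decay quickly, so their level is sensitive to what an animal did shortly before death. Most encode transcription factors that start a later wave of genes, and Arc encodes a protein that acts at synapses.

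Promoter sequence was used for 7 of the 10 members, as 11 windows of 250 bases before a RefSeq transcript start (GRCm38.p6). No window of Egr1, Egr3 or Arc was used, so whether their promoters hold the sites described here was not tested. The windows were searched on both strands for the CArG box, which SRF binds, and for the core CREB site TGACG, which reads CGTCA on the other strand. Egr2 was the sole member of the 7 whose windows held a CArG box, in 4 of its 5 windows, which overlap one another in part. CArG boxes occurred in 1.47% of the 32851 windows of the whole table. The core CREB site occurred in 3 of the 5 Egr2 windows and in every window of the other 6 members, against 17.8% of all windows. A letter match does not show that a factor binds, and the absence of one covers only the bases searched. The windows of Egr2, Fos, Egr4 and Nr4a1 are shown because these genes are compared below: Egr2 changed most with Q175, and its level is set against that of the others. Capitals mark the CArG box and core CREB sites, and each sequence reads 5′ to 3′ on the gene's own strand. They cover chr10:67537619-67537868 (Egr2, plus strand), chr12:85473640-85473889 (Fos, plus strand), chr6:85513590-85513839 (Egr4, minus strand) and chr15:101266596-101266845 (Nr4a1, plus strand). The Egr2 and Nr4a1 windows lie inside the annotated span of their gene, before an internal transcript start, and the Fos and Egr4 windows lie just before the annotated gene.
Egr2: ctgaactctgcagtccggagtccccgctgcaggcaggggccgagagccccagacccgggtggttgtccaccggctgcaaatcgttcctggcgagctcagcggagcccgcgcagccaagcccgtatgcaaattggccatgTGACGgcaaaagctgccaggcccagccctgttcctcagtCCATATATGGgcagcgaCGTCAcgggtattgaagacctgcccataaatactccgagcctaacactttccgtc
Fos: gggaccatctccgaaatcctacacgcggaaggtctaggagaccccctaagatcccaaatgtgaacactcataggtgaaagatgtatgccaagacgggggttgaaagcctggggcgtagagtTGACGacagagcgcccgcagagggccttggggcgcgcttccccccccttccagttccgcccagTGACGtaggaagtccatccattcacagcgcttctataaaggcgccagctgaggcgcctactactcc
Egr4: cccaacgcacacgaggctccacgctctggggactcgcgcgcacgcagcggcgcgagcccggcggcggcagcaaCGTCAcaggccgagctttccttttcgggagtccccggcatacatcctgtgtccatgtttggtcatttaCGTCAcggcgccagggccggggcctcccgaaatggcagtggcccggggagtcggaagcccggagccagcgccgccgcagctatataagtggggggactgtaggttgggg
Nr4a1: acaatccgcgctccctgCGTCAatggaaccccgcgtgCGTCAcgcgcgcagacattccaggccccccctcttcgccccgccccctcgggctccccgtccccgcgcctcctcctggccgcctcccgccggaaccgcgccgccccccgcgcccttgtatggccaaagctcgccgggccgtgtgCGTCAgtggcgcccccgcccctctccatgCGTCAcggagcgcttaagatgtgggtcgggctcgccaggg
The Egr2 window held 1 CArG box and 2 core CREB sites, the Fos window 2 core CREB sites, the Egr4 window 2 and the Nr4a1 window 4.

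Levels between genes were compared as RPKM, which is CPM per kilobase of gene, using the gene lengths in the deposited table. In WT the order ran Egr1 (94.4 ± 31.9 RPKM, SD, n = 6), Arc (87.6 ± 37.4), Egr3 (55.4 ± 10.5), Junb (46.2 ± 15.2), Nr4a1 (43.5 ± 18.2), Egr4 (28.6 ± 11.5), Npas4 (11.6 ± 3.92), Fos (11.03 ± 4.99), Egr2 (7.35 ± 3.56) and Fosb (3.70 ± 1.15). Neighbours in this order mostly differed by less than their SD: Egr1 exceeded Arc in 4 of 6 WT libraries, Junb exceeded Nr4a1 in 4 of 6 and Npas4 exceeded Fos in 4 of 6. Nr4a1 stood above Egr4, Egr4 above Npas4 and Fos above Egr2 in 6 of 6. The order was similar in every genotype apart from Egr2. Egr2 stood above Fosb in 5 of 6 WT libraries and in 6 of 6 Tyrobp-KO libraries, and below Fosb in 6 of 6 libraries of each Q175-carrying group, at 2.12 ± 1.12 RPKM in Q175 and 2.08 ± 1.24 in Q175 Tyrobp-KO. Junb overlaps Prdx2 on the opposite strand, and whether the counting used strand is not given in the sources used here, so its reads may include some of Prdx2.

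**Figure D1:**
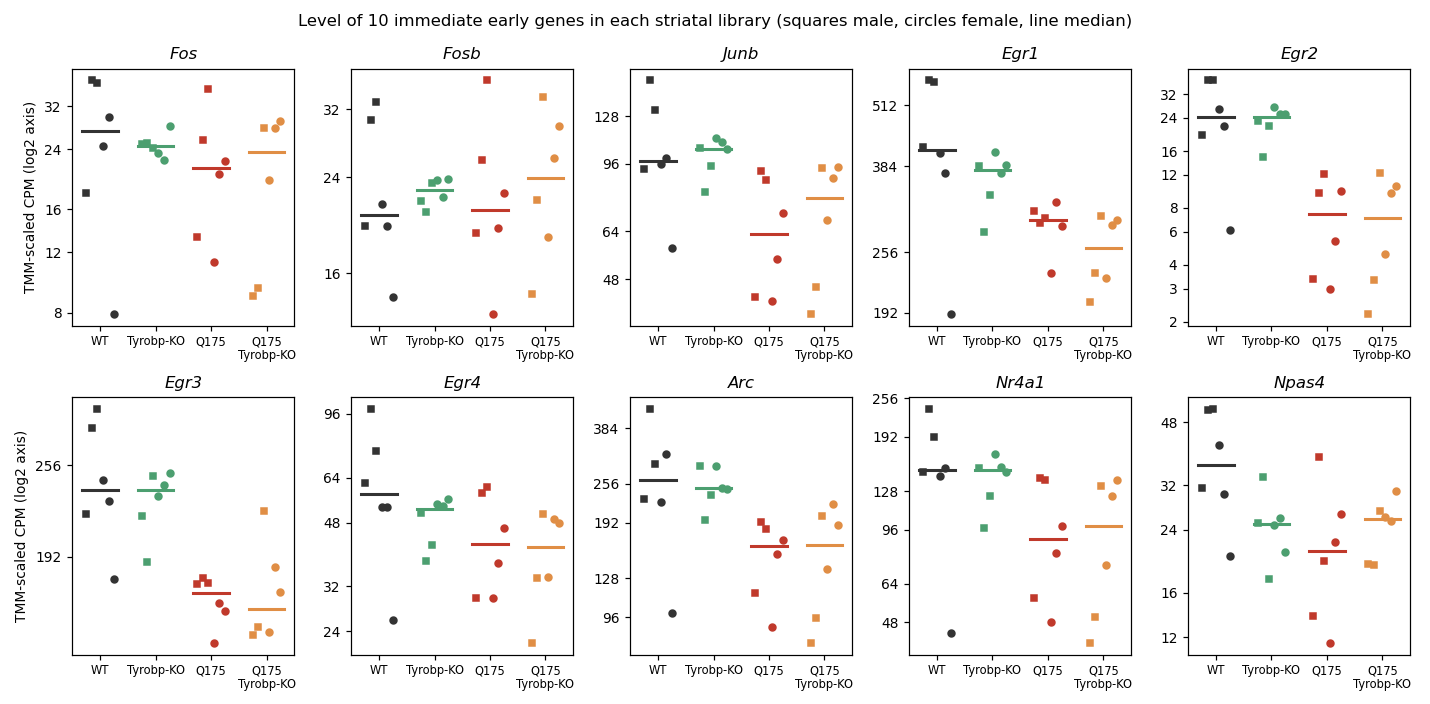
Level of each of the 10 genes in the 24 libraries, as CPM scaled by the trimmed mean of M-values (TMM) on a log2 axis; squares are males, circles females and lines group medians. Egr2 and Egr3 are low in both Q175-carrying groups, the 6 Tyrobp-KO libraries lie close together, and 1 WT library (replicate 6) is the lowest WT point in all 10 panels.

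In each group 1 library was the lowest for most members. WT replicate 6 was the lowest WT library for all 10 genes, with a summed level of 646 CPM against 1259 to 1959 CPM in the other 5. Q175 replicate 4 was the lowest of its group for all 10 genes, Q175 Tyrobp-KO replicate 1 for 9 of 10 and Tyrobp-KO replicate 2 for 8 of 10 (summed level 976 CPM against 1166 to 1369 CPM in the other 5). The summed level had a median of 1304 CPM in WT (646 to 1959), 1280 CPM in Tyrobp-KO (976 to 1369), 900 CPM in Q175 (626 to 1057) and 900 CPM in Q175 Tyrobp-KO (579 to 1107). A second set of libraries stood apart in choroid plexus markers, genes of the tissue that lines the adjoining ventricle. Their summed level exceeded 200 CPM in 5 libraries, all from Q175 carriers (Q175 replicates 3 and 5, Q175 Tyrobp-KO replicates 2, 4 and 6), and reached 4077 CPM in Q175 replicate 3, against 24.7 to 130 CPM in the 12 libraries without Q175. Calls are given below with and without WT replicate 6 and these 5 libraries, and the part of choroid tissue in the results was not tested.

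With Tyrobp intact, Q175 striatum had lower levels of 2 of the 10 immediate early genes, Egr2 and Egr3, and none was higher. A gene was called when its adjusted p was under 0.05 in edgeR's quasi-likelihood test with Benjamini-Hochberg adjustment over all 19667 genes. By that rule 5.47% of all genes were called lower in Q175 than in WT. The log2 fold change was negative for all 10 members, with a median of -0.62 against 0.01 for all genes. The members varied together between animals, as described below, so their signs are not 10 separate observations. Bulk RNA cannot tell fewer cells of a type from less RNA per cell.

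Egr2 encodes a zinc-finger transcription factor known from hindbrain patterning and myelination as well as from activity-driven transcription. Its level ran from 6.16 through a median of 24.2 to 37.9 CPM in WT and from 2.997 through 7.48 to 12.05 CPM in Q175. All 6 Q175 libraries were below the WT median, and the groups overlapped only through WT replicate 6. No member's libraries separated WT from Q175 completely, as 2.39% of all genes did with Q175 lower. Egr2 fell by 1.78 ± 0.45 (log2, SE), which is 3.43-fold lower (edgeR adjusted p = 0.0158; 95% interval of the log2 change -2.73 to -0.83 on 19 residual degrees of freedom). The call held in all 24 fits that each left out 1 library, with adjusted p from 0.00437 to 0.0406. It was lost without the 5 libraries high in choroid plexus markers, where the change was -1.93 and the edgeR adjusted p was 0.0560. It was also lost with only the 12 libraries compared (-1.76, edgeR adjusted p = 0.0529), in males alone (-1.92, 0.189) and in females alone (-1.58, 0.322).

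Egr3 encodes a related zinc-finger factor that neuronal activity induces. Its level ran from 179 through 237 to 306 CPM in WT and from 146 through 171 to 179.4 CPM in Q175. The ranges met only at WT replicate 6 (178.9 CPM), with the other 5 WT libraries above every Q175 library. Egr3 fell by 0.54 ± 0.11 (log2, SE), a 1.45-fold lower level (edgeR adjusted p = 0.00168). Across the 24 fits without 1 library the adjusted p stayed between 0.00023 and 0.00697. Egr3 lost its call in males alone (-0.61, edgeR adjusted p = 0.0570) and in females alone (-0.46, 0.0578). Although its change was smaller than that of Egr2, it was larger against the spread between animals: 2.82 times the SD of log2 CPM about the genotype and sex means, against 2.16 times for Egr2.

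The remaining Egr genes did not pass the test. Egr1, the most abundant member in WT and a widely used marker of neuronal activity, ran from 191 through 414 to 576 CPM in WT and from 231 through 297 to 324 CPM in Q175, and its log2 change was -0.53 ± 0.19 (edgeR adjusted p = 0.0836). Every Q175 library was below the WT median of Egr1, and the groups overlapped through WT replicate 6, which was lower than all of them. Egr4, which shares the zinc-finger DNA-binding domain, ran from 25.8 through 57.5 to 99.0 CPM in WT and from 29.7 through 41.8 to 60.2 CPM in Q175. Its change was -0.48 ± 0.27 (edgeR adjusted p = 0.300), and 4 of the 6 Q175 libraries were below the WT median.

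Fos, Fosb and Junb encode leucine-zipper proteins of the AP-1 transcription factor, in which a Fos protein pairs with a Jun protein. Fos ran from 7.91 through 27.1 to 38.2 CPM in WT and from 11.2 through 21.2 to 35.9 CPM in Q175, a change of -0.27 ± 0.36 (edgeR adjusted p = 0.723). Fosb, whose truncated product accumulates in the striatum after repeated stimulation, ran from 14.4 through 20.5 to 33.0 CPM in WT and from 13.5 through 20.9 to 36.2 CPM in Q175. Its change was -0.02 ± 0.22 (edgeR adjusted p = 0.974, 95% interval -0.47 to 0.43), and the 2 groups overlapped over almost their whole range. Junb, a partner of both, ran from 57.9 through 97.7 to 159 CPM in WT and from 42.0 through 62.8 to 92.2 CPM in Q175, a change of -0.71 ± 0.26 (edgeR adjusted p = 0.100).

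Arc, whose protein promotes removal of AMPA receptors from synapses, ran from 99.5 through 262 to 442 CPM in WT and from 89.3 through 161 to 193 CPM in Q175. Its change was -0.83 ± 0.30 (edgeR adjusted p = 0.0925), and all 6 Q175 libraries were below the WT median. Nr4a1, an orphan nuclear receptor that dopamine signalling regulates in striatal neurons, ran from 44.3 through 150 to 236 CPM in WT and from 48.1 through 89.5 to 141 CPM in Q175, a change of -0.69 ± 0.37 (edgeR adjusted p = 0.282). Npas4, a factor induced by calcium entry in neurons and few other cells, ran from 20.3 through 36.5 to 52.3 CPM in WT and from 11.6 through 20.9 to 38.3 CPM in Q175, a change of -0.78 ± 0.26 (edgeR adjusted p = 0.0703).

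Several of these calls turned on the test and on single libraries. Without WT replicate 6 the number of members called rose from 2 to 6, with Junb (-0.83, edgeR adjusted p = 0.0484), Egr1 (-0.68, 0.00178), Arc (-1.003, 0.0210) and Npas4 (-0.90, 0.0334) added to Egr2 and Egr3, while 5.06% of all genes were then called lower. The same 6 genes were called by DESeq2's Wald test on all 24 libraries. That test called 2303 genes in all, in either direction, against 1893 by edgeR. In males alone Egr1 was the 1 member called (-0.79, edgeR adjusted p = 0.0173), where 759 genes in all were called in either direction. Npas4 was also called by limma-voom on all 24 libraries (-0.81, limma-voom adjusted p = 0.0292) and by edgeR without Q175 replicate 2 (-1.01, edgeR adjusted p = 0.0177). Without the 5 libraries high in choroid plexus markers, 1 member (Egr3) was called and 3.40% of all genes were called lower.

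**Figure D2:**
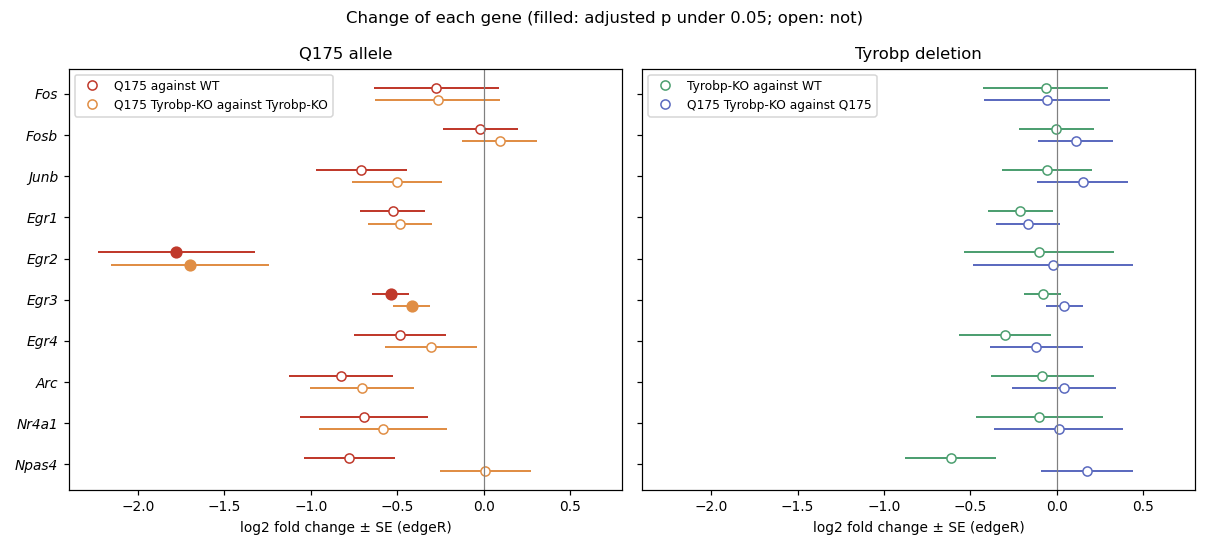
Log2 fold change ± SE from edgeR for each gene, with the Q175 allele compared within each Tyrobp genotype (left) and the Tyrobp deletion compared within each Q175 genotype (right); filled points have an adjusted p under 0.05. Egr2 and Egr3 are filled in both Q175 comparisons and no gene is filled on the right.

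In mice without Tyrobp, the Q175 allele was accompanied by lower levels of the same 2 genes, Egr2 and Egr3, against 3.08% of all genes called lower. The members' log2 changes had a median of -0.45 (all genes 0.00), with 8 negative and 2 positive. Egr2 ran from 14.8 through 24.1 to 27.4 CPM in Tyrobp-KO and from 2.20 through 7.08 to 12.3 CPM in Q175 Tyrobp-KO, so that no library of one group reached the other. Egr2 was the sole member whose groups did not overlap, a separation in this direction that 2.27% of all genes showed. It fell by 1.70 ± 0.45 (log2, SE), 3.25-fold (edgeR adjusted p = 0.0306). Egr3 ran from 189 through 237 to 250 CPM in Tyrobp-KO and from 150 through 162.9 to 222 CPM in Q175 Tyrobp-KO, where replicate 3 was well above the other 5. It fell by 0.42 ± 0.11, or 1.33-fold (edgeR adjusted p = 0.0203).

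These 2 calls were close to the threshold. Egr2 kept its call in 16 of the 24 fits without 1 library (adjusted p from 0.0162 to 0.0736) and Egr3 in 19 of 24 (0.00563 to 0.0583), with changes of -1.93 to -1.50 for Egr2 and -0.49 to -0.37 for Egr3. Neither was called without Tyrobp-KO replicate 3, 5 or 6 or without Q175 Tyrobp-KO replicate 2 or 4, and 1 of them was called without Tyrobp-KO replicate 1 or 4 or Q175 Tyrobp-KO replicate 1. Without the 5 libraries high in choroid plexus markers neither was called (Egr2 -1.54, edgeR adjusted p = 0.286; Egr3 -0.32, edgeR adjusted p = 0.347), when 0.804% of all genes were called lower. With no filter on low counts Egr2 (-1.70, edgeR adjusted p = 0.0542) and Egr3 (-0.42, 0.0517) also missed the threshold, and so did Egr2 in each sex alone and Egr3 in males alone (-0.32, edgeR adjusted p = 0.485).

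The other members did not pass the test without Tyrobp. Arc had a change of -0.70 ± 0.30 (edgeR adjusted p = 0.204), Nr4a1 of -0.58 ± 0.37 (0.441), Junb of -0.50 ± 0.26 (0.326), Egr1 of -0.48 ± 0.19 (0.151), Egr4 of -0.30 ± 0.27 (0.616) and Fos of -0.27 ± 0.36 (0.769). Egr1 was called with only the 12 libraries compared (-0.48, edgeR adjusted p = 0.0180) and without WT replicate 6. For Arc, Nr4a1, Junb, Egr1 and Egr4 all 6 Q175 Tyrobp-KO libraries were below the Tyrobp-KO median. Fosb had a change of 0.09 ± 0.22 (edgeR adjusted p = 0.878). Npas4 had a change of 0.01 ± 0.26 (edgeR adjusted p = 0.992): it ran from 17.4 through 24.9 to 33.7 CPM in Tyrobp-KO and from 19.1 through 25.7 to 30.9 CPM in Q175 Tyrobp-KO, which overlapped completely.

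Whether the effect of Q175 depended on Tyrobp was tested as an interaction, and no member was called by edgeR, DESeq2 or limma-voom. By edgeR 0% of all genes (0 of 19667) were called, and 707 had an unadjusted p under 0.05. The interaction was positive for all 10 members, from 0.01 to 0.79 on the log2 scale. Npas4 had the largest, 0.79 ± 0.37, with an edgeR adjusted p of 0.999. It was the 1 member with an unadjusted p under 0.05 in this test. The values behind it were a median of 36.5 CPM in WT against 24.9, 20.9 and 25.7 CPM in Tyrobp-KO, Q175 and Q175 Tyrobp-KO.

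Deletion of Tyrobp gave no called member. In Tyrobp-KO against WT, 0 of 10 were called by edgeR, DESeq2 or limma-voom, where 0.117% of all genes were called by edgeR, and 1 member had an unadjusted p under 0.05. That member was Npas4, at -0.61 ± 0.26 (unadjusted p = 0.0306, edgeR adjusted p = 0.749), with all 6 Tyrobp-KO libraries below the WT median. All 10 members had a negative log2 change in this comparison too, with a median of -0.09 against 0.0009 for all genes. The 95% interval was -1.01 to 0.80 for Egr2 and -0.30 to 0.14 for Egr3, so changes within these bounds lie inside the error. In Q175 Tyrobp-KO against Q175, 0 of 10 were called by any of the 3 tools, with 0.158% of all genes called by edgeR and no member at an unadjusted p under 0.05. The members' changes lay between -0.17 and 0.17, and the interval was -0.99 to 0.95 for Egr2 and -0.18 to 0.27 for Egr3.

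Q175 Tyrobp-KO against WT, which shares its groups with the comparisons above, called 3 members lower where 5.54% of all genes were called lower. They were Egr2 (-1.80 ± 0.46, edgeR adjusted p = 0.0154), Egr3 (-0.50 ± 0.11, 0.00350) and Egr1 (-0.69 ± 0.19, 0.0217). The Egr1 call was lost in 5 of the fits without 1 library (WT replicate 2 or 3, Q175 Tyrobp-KO replicate 1, 2 or 4), with adjusted p up to 0.0613. Without WT replicate 6, 5 members were called, where 1918 genes in all were called in either direction, against 1857 with all libraries. Without the 5 libraries high in choroid plexus markers no member was called (Egr3 -0.41, edgeR adjusted p = 0.135), and 837 genes in all were.

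No member was called between the sexes. Female against male gave 0 called members by edgeR, DESeq2 or limma-voom (0.0814% of all genes by edgeR) and none with an unadjusted p under 0.05, although all 10 log2 changes were negative, from -0.24 to -0.05. The interaction of Q175 with sex called 0 of 10 by the same tools (0% of all genes by edgeR), with changes from -0.02 to 0.42 and no unadjusted p under 0.05. Within WT the 3 males averaged 522 CPM of Egr1 and the 3 females 324 CPM, the female mean holding replicate 6.

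Egr2 was low in Q175 carriers also when set against other members in the same library. This comparison was chosen after the values were seen and is a description. The ratio of Egr2 to Fos ran from 0.732 through 1.001 to 1.09 in WT and from 0.592 through 0.910 to 1.17 in Tyrobp-KO, against 0.254 through 0.301 to 0.445 in Q175 and 0.234 through 0.350 to 0.443 in Q175 Tyrobp-KO. All 12 carriers were below all 12 non-carriers, WT replicate 6 included (0.778), although that library had low levels of both genes. Of 18855 genes with reads in every library, 4 had a ratio to Fos that separated carriers from non-carriers downwards (0.0212%): Egr2, Gpx6, Wnt8b and Gm17091. The ratio of no other member to Fos did so. The ratio of Egr2 to Nr4a1 also separated the 12 from the 12, at 0.0534 to 0.0999 in carriers and 0.132 to 0.197 in non-carriers. The ratios of Egr2 to each of the other 7 members overlapped between carriers and non-carriers, with medians 2.26-fold (Junb) to 3.59-fold (Fosb) lower in carriers.

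**Figure D3:**
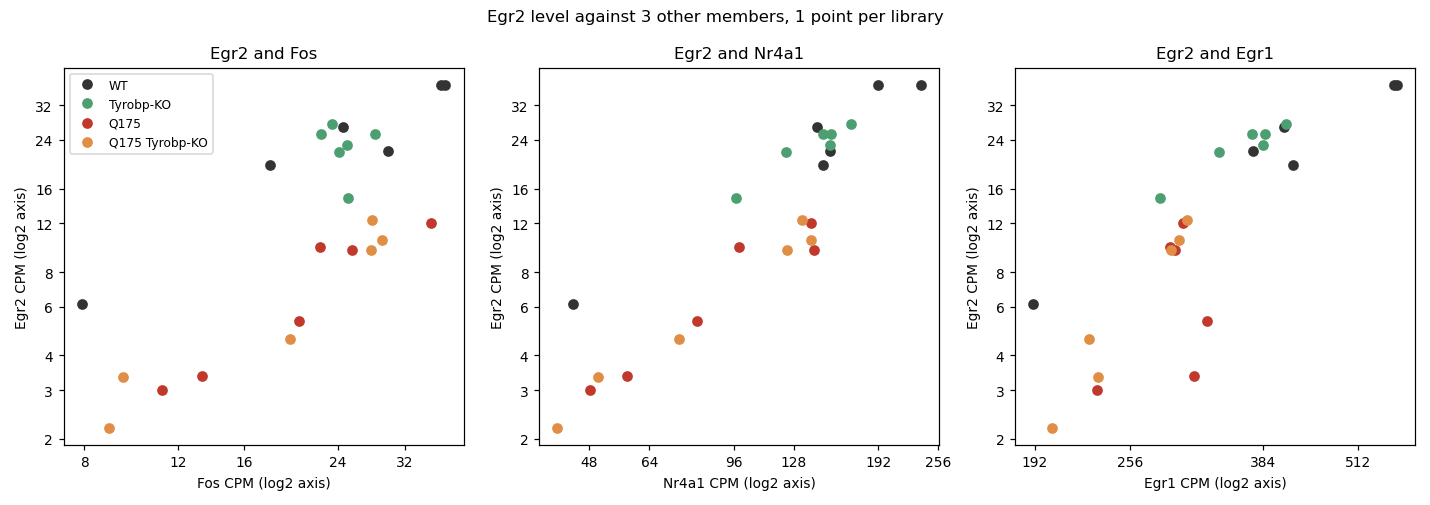
Egr2 CPM against the CPM of Fos, Nr4a1 and Egr1 in each of the 24 libraries, on log2 axes. At a given level of Fos or Nr4a1 the Q175 carriers (red and orange) have less Egr2 than the libraries without Q175, and the WT point at the lower left of the Fos panel is replicate 6.

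Pooled over the genotypes, immediate early genes varied more between animals than most other genes of their level. The SD of log2 CPM about the genotype and sex means was 0.82 for Egr2, 0.63 for Fos, 0.63 for Nr4a1, 0.51 for Arc, 0.47 for Npas4, 0.42 for Junb, 0.42 for Egr4, 0.37 for Fosb, 0.29 for Egr1 and 0.19 for Egr3, with a median over all genes of 0.21. Among the 1000 genes of nearest level, these SDs lay between the 88.2th percentile (Egr3) and the 99.7th (Nr4a1). Within single groups, percentiles were taken among all genes: 62.7 (Egr3) to 97.8 (Egr2) in WT and 14.5 (Fosb) to 68.9 (Npas4) in Tyrobp-KO. In Q175 they ran from 17.5 (Egr3) to 92.9 (Egr2), and in Q175 Tyrobp-KO from 54.75 (Egr3) to 97.2 (Egr2). The spread also differed in size between genotypes: the members' median SD was 0.62 in WT, 0.20 in Tyrobp-KO, 0.49 in Q175 and 0.51 in Q175 Tyrobp-KO, while that of all genes was 0.21, 0.18, 0.22 and 0.19. The WT value includes replicate 6, the lowest WT library for all 10 members, and the SD without that library was not computed. For Fos, a member with a large contrast, the highest library was 4.82 times the lowest in WT, 1.26 times in Tyrobp-KO, 3.20 times in Q175 and 3.25 times in Q175 Tyrobp-KO. In WT its lowest library was replicate 6 at 7.91 CPM, with the rest at 17.9 to 38.2 CPM. Not all members varied least in Tyrobp-KO. Egr1 (SD 0.17 against 0.20) and Egr3 (0.11 against 0.15) varied less in Q175 than in Tyrobp-KO. Npas4 varied less in Q175 Tyrobp-KO (0.28) than in Tyrobp-KO (0.32). The difference in spread was not tested.

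The members rose and fell together from animal to animal within a genotype and sex. Over the 45 pairs, Pearson's r of centred log2 CPM across 24 libraries ran from 0.39 to 0.97 with a median of 0.83, and 44 pairs had an adjusted permutation p under 0.05 (100000 shuffles within genotype and sex, Benjamini-Hochberg over 45 pairs). Spearman's rho ran from 0.43 to 0.97 with 44 pairs past the same threshold. Egr2 and Nr4a1 were the closest pair (r = 0.97, rho = 0.97, adjusted permutation p = 0.000129 and 0.00027; r = 0.95 without the 2 libraries farthest from the median). Npas4 stood least close to the rest, with a median r of 0.66 over its 9 pairs, and its pair with Egr3 was the one that did not pass (r = 0.39, rho = 0.43, adjusted permutation p = 0.0703 and 0.0716; r = 0.19 without the 2 farthest).

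Without the 2 libraries farthest from the median of the first gene of a pair, r ran from 0.19 to 0.95 and 37 of the 45 pairs passed. The 8 that did not were pairs of Npas4, with every member but Junb. For the 7 of these that passed over all 24 libraries, r was 0.50 to 0.67 with them and 0.37 to 0.62 without the 2, where the adjusted permutation p ran from 0.0565 to 0.146. These calls were lost without the 2 libraries, while r itself changed little for some pairs (Fosb 0.58 and 0.58) and more for others (Egr4 0.66 and 0.46). Taking out 2 libraries also lowers the sample size, and leaving out any other 2 was not tested. Within the 12 Tyrobp-intact libraries r ran from 0.60 to 0.98, and within the 12 Tyrobp-deleted libraries from -0.04 to 0.99, the low end being Egr3 with Npas4. Within the 12 males it ran from 0.23 to 0.99 and within the 12 females from 0.66 to 0.99.

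**Figure D4:**
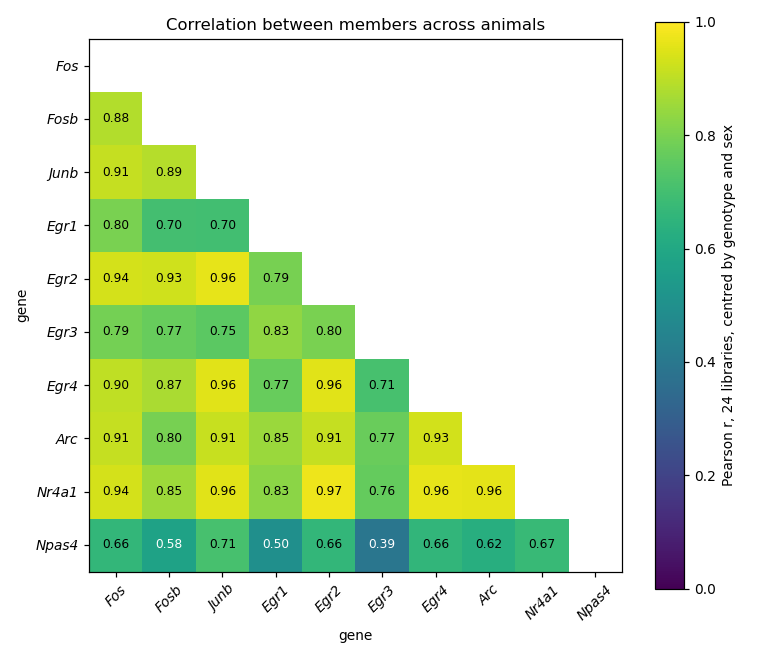
Pearson's r between each pair of members over 24 libraries, from log2 CPM centred on the mean of each genotype and sex. Values run from 0.39 (Egr3 with Npas4) to 0.97 (Egr2 with Nr4a1), and the Npas4 row is the lowest.

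The 8 genes outside the list that followed the members most closely, by mean r over the 10 members and 24 libraries, were 1700016P03Rik (0.85), Dusp1 (0.85), Sik1 (0.83), Fosl2 (0.81), Slc25a25 (0.79), Shisa2 (0.79), Rnd3 (0.79) and Tiparp (0.79). Dusp1 encodes a phosphatase that inactivates MAP kinases, Sik1 a kinase induced by cyclic AMP, and Fosl2 a further AP-1 subunit. Of these 8, Dusp1 (-0.70, edgeR adjusted p = 0.0240), Slc25a25 (-0.42, 0.0210) and Shisa2 (-1.34, 0.000515) were lower in Q175 than in WT, and Shisa2 was also lower in Q175 Tyrobp-KO than in Tyrobp-KO (-1.19, edgeR adjusted p = 0.00294). A mean r above 0.5 was reached by 14 of 41 other rapid response genes and 5 of 9 feedback genes, against 2.67% of all genes.

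Markers of other cells moved with this shared variation. The 14 markers of cortical excitatory neurons had a median mean r of -0.47 with the members and the 15 markers of striatal projection neurons one of 0.40 (all genes 0.01). The summed cortical markers ran from 204 to 916 CPM in WT, 568 to 1156 CPM in Tyrobp-KO, 183.3 to 967 CPM in Q175 and 175.02 to 1071 CPM in Q175 Tyrobp-KO. No marker was at 0 in all 24 libraries, and 0 of 14 were called in either Q175 comparison. The 6 microglial markers had a median mean r of 0.07 and the 13 heat shock genes one of 0.24. The part of dissection in the shared variation was not tested.

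Among 41 other rapid response genes, 6 were lower in Q175 than in WT, where 5.47% of all genes were, and none higher, with a median change of -0.19. Homer1, whose short form uncouples glutamate receptor scaffolds, fell by 0.70 ± 0.10 (edgeR adjusted p = 5.47e-05), Ier5l by 0.67 ± 0.10 (4.07e-05) and Crem, a repressor of CREB targets in its short form, by 0.37 ± 0.08 (0.00189). The other 3 were Plk2 (-0.40), Arl4d (-0.65) and Dusp1. Without Tyrobp, 3 of 41 were lower (3.08% of all genes), Homer1 (-0.62, edgeR adjusted p = 0.000474), Ier5l (-0.41, 0.0109) and Plk2 (-0.30, 0.0430), and the median was -0.34.

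Later activity-regulated genes are those the first wave helps to induce, and 4 of 15 were lower in Q175 (5.47% of all genes). They were Inhba, an activin subunit (-0.66 ± 0.11, edgeR adjusted p = 0.000193), Cdkn1a (-0.48 ± 0.12, 0.0101), Sorcs3 (-0.47 ± 0.12, 0.0129) and Vgf (-0.32 ± 0.10, 0.0350). Without Tyrobp 2 of 15 were lower (3.08% of all genes), Cdkn1a (-0.58, edgeR adjusted p = 0.00345) and Inhba (-0.52, 0.00405).

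Upstream of these genes, 9 of 37 kinases, transcription factors and coactivators were lower in Q175 (5.47% of all genes) and none higher, with a median of -0.02. The 9 were Rps6ka4 (-0.58 ± 0.07, edgeR adjusted p = 1.02e-06) and Rps6ka5, the kinases that phosphorylate CREB and histone H3 at these promoters, Camkk2 (-0.62 ± 0.08, 3.08e-06), Camkk1, Camk4, Camk2a and Camk2b of the calmodulin kinase cascade, Ppp3ca (-0.49 ± 0.08, 0.000174), the calcineurin catalytic subunit, and Rasgrp2 (-0.72 ± 0.15, 0.00254), a Rap activator of striatal neurons. None of the genes for CREB, SRF, MEF2 or their coactivators on the list was called. Without Tyrobp 6 of 37 were lower (3.08% of all genes), Rps6ka4 (-0.57, edgeR adjusted p = 1.69e-06), Camkk2 (-0.47, 0.000238), Ppp3ca (-0.40, 0.00260), Camk2a, Camk4 and Camkk1.

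Feedback phosphatases and corepressors, which damp the response, had 3 of 9 members lower in Q175, against 5.47% of all genes: Spry2 (-0.46 ± 0.10, edgeR adjusted p = 0.00211), Ptpn5, the striatum-enriched tyrosine phosphatase (-0.56 ± 0.12, 0.00363), and Dusp14 (-0.64 ± 0.15, 0.00822). Without Tyrobp there were also 3 of 9, against 3.08% of all genes: Dusp14 (-0.69, edgeR adjusted p = 0.00819), Spry2 (-0.38, 0.0153) and Dusp6 (-0.52, 0.0295). Beside these lists, 13 of 15 markers of striatal projection neurons were lower in Q175 (median -0.74; 5.47% of all genes lower) and 7 of 15 without Tyrobp (median -0.45; 3.08% of all genes lower), led by Penk (-1.12 ± 0.16, edgeR adjusted p = 5.51e-05, and -0.91 ± 0.15, 0.00101). None of the genes of these lists was called in either comparison of the Tyrobp deletion. Without the 5 libraries high in choroid plexus markers, the counts lower in Q175 were 5 of 41, 3 of 15, 7 of 37, 3 of 9 and 9 of 15 in the order given (3.40% of all genes), and without Tyrobp 1 of 41, 1 of 15, 3 of 37, 0 of 9 and 2 of 15 (0.804% of all genes). Without WT replicate 6 the striatal count in the absence of Tyrobp was 4 of 15 (2.88% of all genes).

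**Figure D5:**
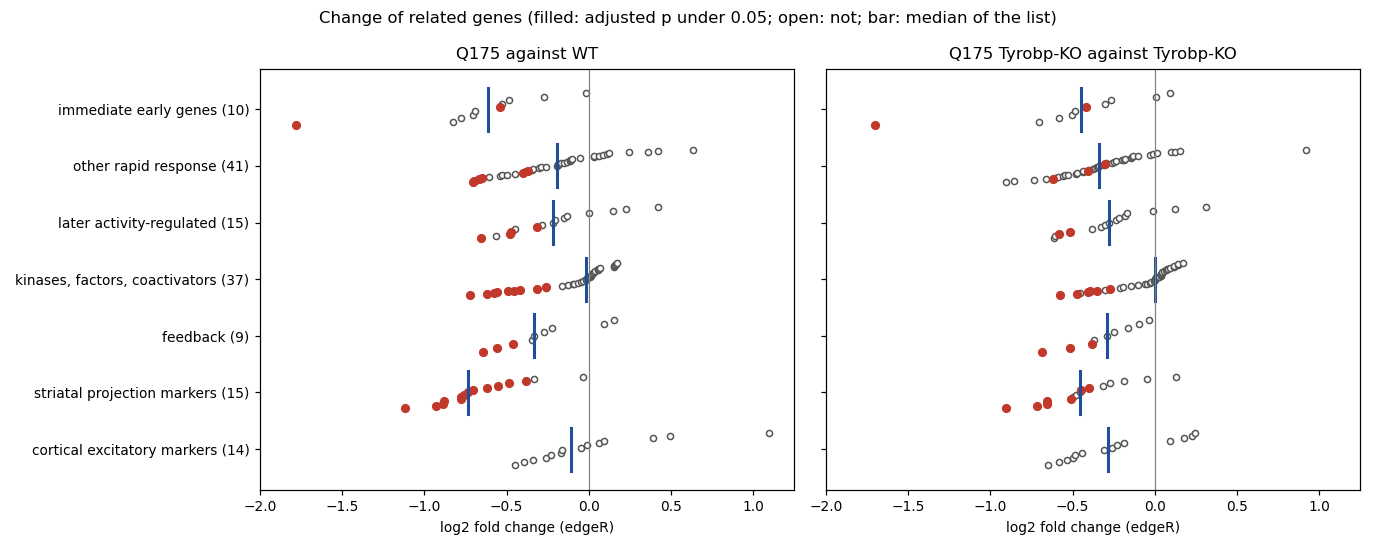
Log2 fold change of each gene of the related lists, 1 point per gene, for Q175 against WT (left) and Q175 Tyrobp-KO against Tyrobp-KO (right); filled points have an edgeR adjusted p under 0.05, bars are list medians and numbers in brackets are genes tested. All filled points lie below 0, and the markers of striatal projection neurons have the most in proportion.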

How the data were processed

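RNA was measured by sequencing of total RNA from 24 striata. The authors deposited 1 table of whole-number read counts per gene; per the submitters' processing notes the tools were STAR, featureCounts and DESeq2, with no versions, and the build was GRCh38, a human assembly, while the deposited gene coordinates match mouse GRCm38. Whether counting used strand is not given in the sources used here. Groups and sex came from the labels. Replicates were separate animals, numbered in accession order, and no 2 libraries of a genotype agreed within sampling noise (60 pairs, mean chi-square per gene 6.89 or more).

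From the counts, edgeR 4.0.16 (R 4.3.3) was fitted to all 24 libraries with a mean per genotype and a sex term, TMM scaling, the expression filter of edgeR on genotype, and robust quasi-likelihood tests, with Benjamini-Hochberg adjustment over 19667 genes and calls at 0.05. SE is the log2 change divided by the square root of F. CPM were TMM-scaled, and correlations used log2 CPM with a prior count of 2. The script was tested on simulated data for Q175 against WT over 19667 genes, where it recovered 26% of changes of 1.25-fold, 58% of 1.5-fold, 74% of 2-fold and 90% of 3-fold, so many true changes of the smaller sizes would be missed with 6 animals a group. The changed genes were drawn at random from all genes tested. Because the members varied more than most genes of their level, these rates need not hold for them. Alternatives were DESeq2 1.42.0, limma-voom (limma 3.58.1), RLE scaling, no filter, no robust step, no sex term, each sex alone, only the 12 libraries compared, each library left out, and, added after seeing the data, leaving out the 5 libraries high in choroid plexus markers.

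The members and the gene lists were chosen with earlier results of these data known. Named genes were all members, the genes of each related list with the smallest p for the Q175 effect (3 with Tyrobp intact, 2 without it), and the 8 genes most correlated with the members. Other called genes, including Plk2, Arl4d, Vgf, Rasgrp2, Dusp6 and the kinases listed, were named after their values were seen. Promoter sequences are from RefSeq (GRCm38.p6). Egr1, Egr3 and Arc had no window used here.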

Additional observations from a re-analysis of the deposited data

Results flagged for a closer look

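In the Q175 group, Egr1 in replicate 4 (231 CPM) lay apart from the other 5 libraries: its gap to the nearest of them (290 CPM) was 0.629 of the group's range, over Dixon's critical value of 0.625 for 6 samples. It was the 1 such library among the 40 combinations of gene and genotype examined, and chance alone flags about 1 in 20 groups.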

How the results depend on the processing

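The number in brackets after a count is that of all genes called in the same fit, in either direction. In Q175 against WT the count of called members was 2 as reported (1893). With DESeq2 it was 6 (2303), without the robust step 5 (1925) and with limma-voom 3 (1895). It was 1 in males alone (759) and 0 in females alone (187). It was 1 with only the 12 libraries compared (1303) and 1 without the libraries high in choroid plexus markers (1130), Egr2 being lost in both. Over the fits without 1 library it ran from 2 to 6. In Q175 Tyrobp-KO against Tyrobp-KO it was 2 as reported (1153), 0 with no filter (890), 0 in males alone (104) and 1 in females alone (290). It was 3 with only the 12 libraries (1485), Egr1 being added, 0 without the choroid-high libraries (287) and 0 to 3 without 1 library. In Q175 Tyrobp-KO against WT it was 3 as reported (1857), 1 in males alone (752) and 0 in females alone (240). It was 1 with only the 12 libraries (1634), 0 without the choroid-high libraries (837) and 2 to 5 without 1 library. Fits of 1 sex, 12 libraries or 19 libraries use fewer samples; for the rest the cause was not tested. Reversed values, none of them called, were for Fos in Q175 Tyrobp-KO against Tyrobp-KO (0.0447 in females alone) and for Npas4 in the same comparison (-0.0081 by limma-voom, -0.0007 with no sex term, -0.22 in males alone, -0.0089 with only the 12 libraries, -0.0808 without the choroid-high libraries, and -0.0853 to 0.109 without 1 library). Fosb ran from -0.179 to 0.0881 in Q175 against WT and from -0.0139 to 0.222 in Q175 Tyrobp-KO against Tyrobp-KO without 1 library. In Q175 Tyrobp-KO against WT, Fos (-0.33 in the main fit) reached 0.29 in 1 of the other settings. Fosb (0.09 in the main fit) fell to -0.25 in 1 of these settings and to -0.0133 without 1 library. Neither was called there. All members' changes in the Tyrobp-KO against WT, Q175 Tyrobp-KO against Q175 and interaction comparisons stayed uncalled under every setting run, with 33 of 340, 39 of 340 and 43 of 330 values changing sign. Pairs of members past the threshold numbered 44 of 45 with Spearman, 44 with a prior count of 0.5, 45 with centring on genotype alone and 37 without the 2 farthest libraries. No paired analysis was possible because the replicates were numbered in accession order, and the animal numbers in the labels give no comparison more than 1 number shared by its groups.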
